A study of Mus musculus with 2 samples.

Results

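The genes described here are 39 mouse genes of DNA replication and S phase, taken by symbol from the 27998 genes of a single-cell RNA-seq table. All 39 symbols were found, and all 39 held at least 50 UMIs (unique molecular identifiers, each standing for 1 captured transcript), the minimum used for ratios. The study sorted multipotent progenitors from the bone marrow of C57BL/6 wild-type and C57BL/6 Spp1-/- mice by the gate Lin–Sca-1+c-kit+CD34+Flt3L+. Mice of both genotypes had received thioglycollate, a sterile irritant of the peritoneum, by intraperitoneal injection 20 h earlier, so no untreated mice enter any comparison. Spp1 encodes osteopontin, a secreted phosphoprotein of bone and of immune cells. Each genotype gave 1 10x 3′ library, and the labels name neither the age nor the number of mice behind it.

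Both libraries lie in 1 matrix and are told apart by the barcode suffix alone. No label ties a suffix to a genotype, so they are called library 1 and library 2, and no direction below is a direction of genotype. Spp1 itself held 33 UMIs in library 1 and 1 in library 2; no genotype was assigned from these counts. After removal of barcodes with under 500 genes or with 10% or more mitochondrial UMIs, 3253 cells of library 1 and 4570 of library 2 were kept, with medians of 2830 and 3836 UMIs. The 2 libraries shared 32 barcode sequences, under 1% of either. Markers of the sort (Kit, Ly6a, Cd34 and Flt3) summed to 883 and 929 UMIs per 1000000 (CPM), T-cell markers to 0 UMIs in both, and B-cell markers to 2 and 3 UMIs. Dendritic markers, mostly MHC class II genes, differed most, with 792 CPM in library 1 and 232 in library 2. With 1 library per genotype there is no replicate and no test, and every interval below is a 95% interval that covers counting error only.

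A eukaryotic cell prepares its genome for copying in G1, when ORC, Cdc6 and Cdt1 load the Mcm2–7 ring onto origins, a step called licensing. At the start of S phase the ring is turned into an active helicase by Cdc45, the GINS complex and Mcm10, and primase, the replicative polymerases, the clamp Pcna and the clamp loader Rfc follow, while ribonucleotide reductase, thymidylate synthase and thymidine kinase feed the forks with nucleotides. Many of these genes are transcribed under E2F factors at the G1/S boundary, and multipotent progenitors, unlike most long-term stem cells, are known to divide often. The 8 licensing genes (Mcm2 to Mcm7, Cdc6 and Cdt1) are called the early members here. The late members are 8 others: the DNA synthesis genes Rrm1, Rrm2, Tyms, Tk1, Fen1, Rpa2 and Rfc4, and the chromatin gene Atad2. The remaining 23 members are in neither set, among them synthesis genes such as Pcna, Lig1 and Rfc3. Values of the early share depend on this choice.

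The promoters show a difference in sequence between these sets that the choice of genes did not use. RefSeq promoter windows (GRCm38.p6) were matched for 32 of the 39 members, in 37 windows. An E2F-type 8-mer (TTTGGCGC, TTTCCCGC, TTTCGCGC or TTTGCCGC on either strand; the matches of 2 such words can overlap) stood in the 250 bases before the start in 24.3% of member windows and in 1.86% of all 32851 windows. By set, 4 of 8 early windows, 0 of 8 late windows and 0 of 21 windows of a mitotic gene list held one. The early and late windows cover 7 genes each, with Mcm7 and Fen1 counted more than once. The starts of the matching Mcm5, Mcm6 and Mcm7 windows fit no annotated transcript start, nor did those of late members Tyms and Tk1. The last 170 bases of that Mcm7 window lie within annotated exons. CCAAT stood in 56.8% of member windows against 33.8% of all, and TTTGAA, the core of the cell-cycle homology region, in 10.8% against 16.0%. A match is a description of letters and not a shown binding site, and no match says only that these letters are not in the window. The stretches of 170 bases below are shown because they put promoters with a match beside promoters of early and late members without one. Capitals mark the E2F-type matches, and each reads 5′ to 3′ on the strand of its gene.

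Among the promoters with a match were those of Mcm5 at chr8:75109339-75109508 (plus strand), Mcm6 at chr1:128359706-128359875 (minus strand) and Pola1 at chrX:93632156-93632325 (minus strand).
Mcm5: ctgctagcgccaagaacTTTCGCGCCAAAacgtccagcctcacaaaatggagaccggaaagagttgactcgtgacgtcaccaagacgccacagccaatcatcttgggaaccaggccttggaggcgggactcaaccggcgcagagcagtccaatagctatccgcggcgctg
Mcm6: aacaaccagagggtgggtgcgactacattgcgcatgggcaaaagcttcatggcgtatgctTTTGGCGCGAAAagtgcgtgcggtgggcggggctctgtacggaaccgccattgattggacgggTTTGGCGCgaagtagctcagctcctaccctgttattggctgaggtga
Pola1: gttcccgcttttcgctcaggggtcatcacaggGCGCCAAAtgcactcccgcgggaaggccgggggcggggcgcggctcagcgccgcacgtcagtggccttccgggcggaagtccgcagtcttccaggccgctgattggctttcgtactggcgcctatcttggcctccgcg

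Promoters with no match were those of Mcm2 at chr6:88898781-88898950 (minus strand), Rrm1 at chr7:102441525-102441694 (plus strand) and Tyms at chr5:30073626-30073795 (minus strand).
Mcm2: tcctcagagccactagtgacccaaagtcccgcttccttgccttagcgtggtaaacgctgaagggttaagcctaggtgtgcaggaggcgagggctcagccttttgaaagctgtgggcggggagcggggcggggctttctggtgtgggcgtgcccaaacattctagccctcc
Rrm1: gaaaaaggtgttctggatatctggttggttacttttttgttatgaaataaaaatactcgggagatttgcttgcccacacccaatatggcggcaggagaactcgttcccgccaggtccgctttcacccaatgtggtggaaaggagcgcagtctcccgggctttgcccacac
Tyms: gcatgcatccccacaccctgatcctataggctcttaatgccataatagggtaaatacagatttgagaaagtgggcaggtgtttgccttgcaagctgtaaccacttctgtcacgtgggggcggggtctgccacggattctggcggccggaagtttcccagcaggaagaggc

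In Mcm5 the 2 matches overlapped, and so did 2 of the 3 in Mcm6; Pola1 held 1, on the opposite strand. The other members with a match were Cdc6, Gins3, Hells, Mcm7, Rfc3 and Uhrf1, so that licensing, helicase, clamp-loader and chromatin genes were among them. No gene of nucleotide supply or of fork protection and repair was, nor were Fen1 and Lig1. In all, 9 of the 32 members with a window held a match.

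Replication transcripts were abundant in both libraries and slightly higher in library 2. The 39 genes summed to 4442 CPM (4401 to 4483) in library 1 and 5094 CPM (5061 to 5126) in library 2, a log2 ratio of library 2 over library 1 of 0.20 (0.18 to 0.21). The median log2 ratio over the members was 0.22, beside 0.11 over all 10099 genes measured, and 27 of 39 members lay above that all-gene median. Past 1.5-fold, 1 member was higher in library 2 (background 4.79% of all genes) and 0 were lower (background 2.46%), so the count of members past the fold was below or near that of genes at large. Past a smaller fold, 0.32 on the log2 scale, 7 members were higher (background 17.5%) and 0 lower (background 7.51%). With trimmed-mean (TMM) scaling the log2 ratio of the sums was 0.08, and no member was past the fold (background 2.91% higher and 3.89% lower).

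Licensing genes were close to even between the libraries. Mcm7, a subunit of the helicase ring, stood at 213 CPM in library 1 and 241 CPM in library 2 (log2 ratio 0.17, 0.10 to 0.25). Mcm6, another subunit, stood at 201 and 248 CPM (0.30, 0.23 to 0.38). Mcm3 had 194 and 213 CPM (0.13, 0.06 to 0.21) and Mcm2 121 and 136 CPM (0.16, 0.06 to 0.26). A pair of ring subunits went the other way by a little, each with an interval that included 0. Mcm5 had 132 and 126 CPM (−0.07, −0.17 to 0.03), and Mcm4 had 64.3 and 61.4 CPM (−0.07, −0.21 to 0.07). The loaders were lower in level, Cdt1 at 43.5 and 46.7 CPM (0.10, −0.07 to 0.27) and Cdc6 at 24.8 and 31.5 CPM (0.34, 0.13 to 0.56). The median over the 8 was 0.15. At the 3′ end, 5.98% of the 50-base words of Mcm5 also occur in many other genes, and 1.99% of those of Mcm7 in Gm5487. A few of their UMIs may thus have been dropped or counted elsewhere. The other 37 members share none.

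Helicase activation genes had a median log2 ratio of 0.26 over 5 genes. Gins2, which held the most UMIs of this role and belongs to the GINS complex, stood at 151 and 156 CPM (0.05, −0.04 to 0.14), and Gins1, of the same complex, at 40.7 and 43.8 CPM (0.11, −0.07 to 0.28). Gins3 was the member with the fewest UMIs, at 11.8 and 15.3 CPM.

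Among polymerases, the clamp and its loader the median over 9 genes was 0.22. Rfc2, a clamp-loader subunit, held 341 and 398 CPM (0.22, 0.16 to 0.28). Pcna, the sliding clamp that tethers the polymerases, was the member with the lowest ratio, at 298 CPM (287 to 309) in library 1 and 276 CPM (269 to 284) in library 2 (log2 ratio −0.11, −0.18 to −0.04), and its interval lay below 0. Rfc5, another loader subunit, had one of the highest, at 94.2 and 127 CPM (0.43, 0.32 to 0.54), so subunits of 1 complex did not move by 1 amount. Rfc4 lay between, at 131 and 159 CPM (0.27, 0.18 to 0.37). The exons of genes on the opposite strand (Wsb2 and Eif4a2) reach into the last 300 bases of Rfc5 and Rfc4, as others do for Chaf1a, Fen1, Gins2 and Mcm7; no label states whether the counting used strand.

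The 2 genes that finish Okazaki fragments differed in direction. Fen1, the flap endonuclease, stood at 86.3 and 114 CPM (0.40, 0.28 to 0.51), and Lig1, the ligase that seals the nicks, at 186 and 181 CPM (−0.04, −0.13 to 0.04), with an interval that included 0.

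Nucleotide supply was the role with the highest median, 0.37, and 5 of its 5 genes lay above the all-gene median. Dut, which removes dUTP before it can be built into DNA, was the 1 member past 1.5-fold, at 262 CPM (252 to 272) in library 1 and 399 CPM (390 to 408) in library 2 (log2 ratio 0.61, 0.54 to 0.67). Rrm1, the large subunit of ribonucleotide reductase, stood at 137 and 181 CPM (0.41, 0.32 to 0.50), and Rrm2, its small subunit, at 119 and 154 CPM (0.37, 0.27 to 0.46). Tk1, thymidine kinase, had 138 and 162 CPM (0.23, 0.14 to 0.32) and Tyms, thymidylate synthase, 202 and 235 CPM (0.22, 0.14 to 0.29). All 5 were thus higher in library 2 with intervals above 0, and together they held 858 CPM in library 1 against 1130 in library 2.

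Chromatin genes had a median of 0.22 over 6. Hells, a chromatin remodeller, held 134 and 152 CPM (0.19, 0.10 to 0.28), Uhrf1, which brings the maintenance DNA methyltransferase to new DNA, 78.8 and 78.7 CPM (0.00, −0.13 to 0.13), and Atad2, a bromodomain protein, 50.6 and 60.2 CPM (0.25, 0.10 to 0.40). For fork protection and repair the median over 4 was 0.20. Tipin, of the fork protection complex, held 209 and 207 CPM (−0.01, −0.09 to 0.07), and Rpa2, of the single-strand binding protein, 152 and 184 CPM (0.28, 0.19 to 0.36).

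**Figure D1:**
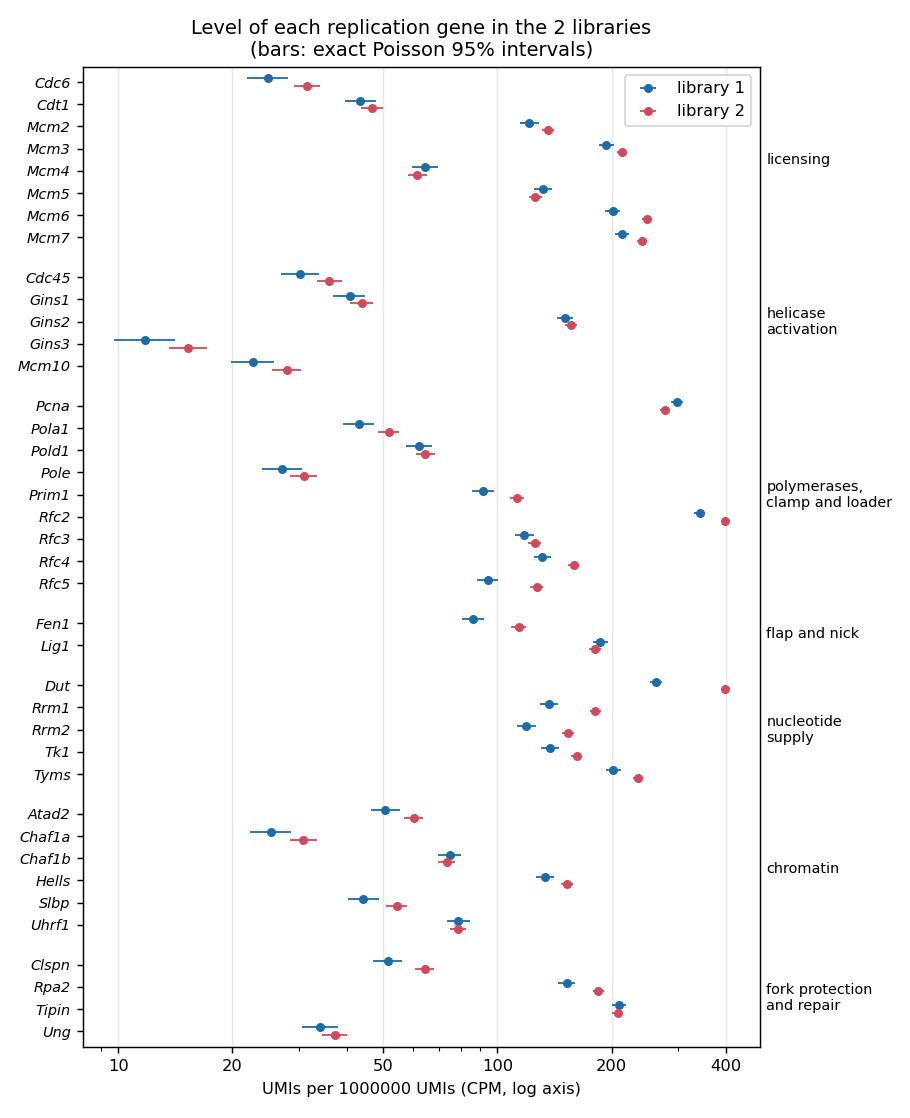
CPM of each of the 39 genes (log axis) in library 1 and library 2, ordered by role, with exact Poisson 95% intervals. The 5 nucleotide supply genes lie higher in library 2, with Dut the farthest apart, and Pcna lies lower.

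Of 40 other replication genes, chosen by function, all 40 were measured. Their median log2 ratio was 0.15, with 2 of 40 past 1.5-fold higher in library 2 and 0 lower, a share near that of all genes (4.79%). Those 2, named after their values were seen, were Dbf4 (0.71) and Cdc7 (0.60). The 3 with the most UMIs were Top1, a topoisomerase (0.22), Rnaseh2c, of the enzyme that removes ribonucleotides (0.08), and Gmnn, the inhibitor of Cdt1 (0.23). Among 11 regulators of the G1/S step the median was 0.08 and none was past the fold. Cdk2, Ccna2 and Cdc25a, those with the most UMIs, had log2 ratios of 0.12, 0.49 and 0.16. A list of 23 mitotic genes, such as Ccnb1 and Plk1, differed by far more, with a median of 0.80 and 20 of 23 past 1.5-fold higher in library 2. The replication genes therefore sat close to the all-gene level where the mitotic list did not.

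Over all kept cells the late members leaned to library 2 more than the early set. In cells of 2000 to 4000 UMIs this order turned around. Late members summed to 1016 and 1248 CPM, early members to 994.8 and 1103 CPM. The early share, the early UMIs over those of both sets, was 49.5% (48.8 to 50.2) in library 1 and 46.9% (46.4 to 47.4) in library 2. The median log2 ratio was 0.27 for the late set, with 8 of 8 genes above the all-gene median, and 0.15 for the early set, with 5 of 8. The mitotic list, higher in library 2, moves with this share, as the bins below show; its part in the difference was not tested. In cells of 2000 to 4000 UMIs the early share was 49.6% (48.6 to 50.5) in library 1 and 52.0% (51.2 to 52.9) in library 2, so library 2 was then the higher. With each cell reduced to 2000 UMIs, as described below, library 1 stayed the higher. The early share was then 49.5% (48.6 to 50.5) in library 1 and 47.7% (47.0 to 48.5) in library 2.

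Per cell, replication transcripts formed a single broad distribution without a gap. Each cell with at least 2000 UMIs was reduced to 2000 UMIs drawn at random, which left 2444 cells of library 1 and 4016 of library 2 and set aside 809 and 554 shallower cells. The median cell then held 9 member UMIs in library 1 and 10 in library 2, with means of 9.47 and 10.4. The variance was 2.24 and 2.55 times the mean, where counting alone gives a ratio of about 1. Only 0.736% and 0.647% of cells held no member UMI at this depth.

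Cells with 10 or more member UMIs are called replication-rich here. This is a range of a score and not a phase call: 32.2% and 28.3% of cells lay at 8 to 11 UMIs, near the limit. Replication-rich cells made up 47.3% (45.3 to 49.3) of library 1 and 54.5% (53.0 to 56.1) of library 2, 7.19 percentage points more (4.68 to 9.69). Without thinning, over all kept cells, the shares were 60.8% and 75.9%, and the median depth differed as given above. Among cells with 2000 to 4000 UMIs in all, they were 49.5% and 53.1%.

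**Figure D2:**
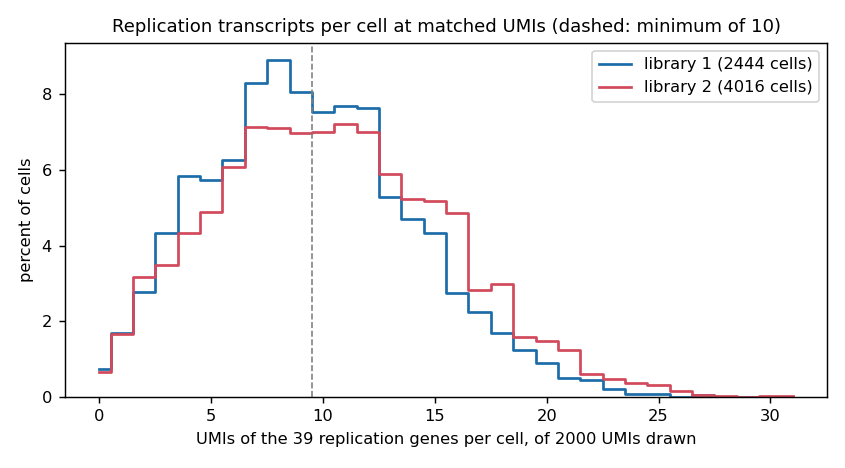
Percent of cells against the number of UMIs of the 39 genes per cell, with every cell reduced to 2000 UMIs, for library 1 (2444 cells) and library 2 (4016 cells). Both curves have 1 broad peak, and the limit of 10 UMIs (dashed) crosses it near its middle.

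The level also depended on cell size in UMIs before thinning, and not in 1 direction. In library 1 the members held 2621 CPM in cells with under 2000 UMIs, 5145 CPM at 3000 to 4000 UMIs and 4114 CPM at 6000 or more. In library 2 the values were 2796, 6001 and 4614 CPM. The highest level lay in mid-sized cells in both libraries, while the mitotic list was highest in the largest cells, at 2002 and 3434 CPM. The early share was 61.0% and 58.1% in the smallest class and 46.2% and 43.4% at 4000 to 6000 UMIs.

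Ordering the cells by their mitotic transcripts set the early and the late members, as chosen here, apart. Both sets were chosen with earlier results of these data known, so this separation describes the chosen sets only. The 23 mitotic genes hold no member, and cells were binned by their UMIs after thinning. Member UMIs per cell were 8.83 and 9.63 (library 1 and library 2) in cells with 0 mitotic UMIs, 10.7 and 12.3 at 1 to 4, 8.69 and 10.3 at 5 to 9, and 6.09 and 6.83 at 10 to 19. The level was thus highest in cells with few mitotic transcripts and lowest in those with many. Replication-rich cells followed the same course, from 41.8% and 48.6% at 0 mitotic UMIs through 58.7% and 70.9% at 1 to 4 to 13.7% and 21.7% at 10 to 19.

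Early members were already near their highest level in cells with 0 mitotic UMIs. In library 1 they went from 2.14 UMIs per cell at 0 to 2.33 at 1 to 4, 1.75 at 5 to 9 and 1.17 at 10 to 19. Late members went from 1.68 to 2.53, 2.35 and 1.71 over the same bins, ending where they began. In library 2 the early values were 2.44, 2.66, 2.01 and 1.36 and the late values 1.76, 2.99, 3.0 and 1.91. The early share accordingly fell by 15.7 percentage points from 0 to 10 or more mitotic UMIs in library 1 and by 16.7 points in library 2. It was 56.0% (54.3 to 57.7) and 58.1% (56.7 to 59.6) at 0, and 40.6% (35.7 to 45.6) and 41.5% (39.1 to 44.0) at 10 to 19. The bin of 20 or more held only 15 cells in library 1 and 66 in library 2. With all other members in place of the late set, the change in early share from 0 to 10 or more mitotic UMIs was smaller. It was then −5.44 points in library 1 and −5.60 in library 2.

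**Figure D3:**
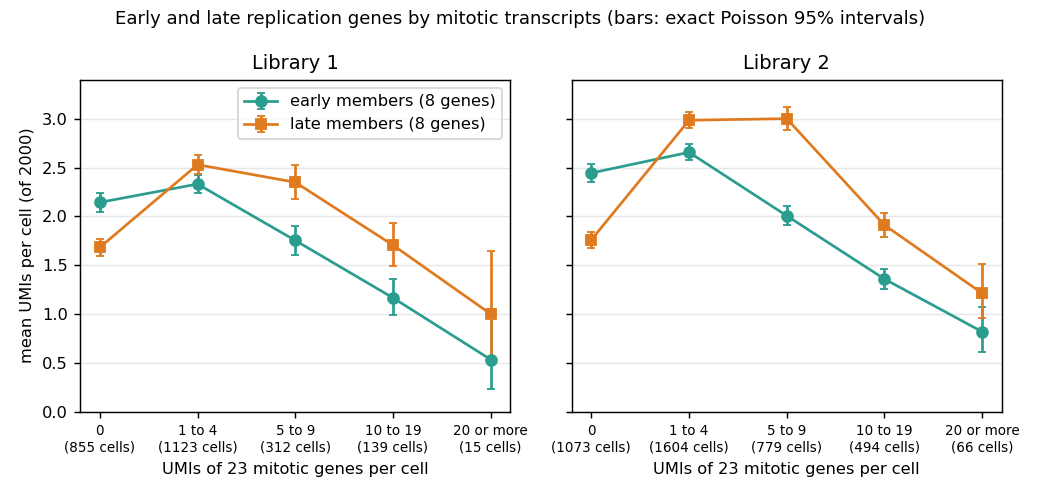
Mean UMIs per cell of the 8 early and the 8 late genes by the number of UMIs of 23 mitotic genes in the cell, of 2000 UMIs per cell, with exact Poisson 95% intervals. Early genes lie above late genes at 0 mitotic UMIs and below them in every other bin.

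Gene by gene, most licensing genes, the clamp and 4 of the chromatin genes measured in each library were lower past 1.5-fold in mitotic-rich cells, and of the 5 nucleotide supply genes 1 was in library 1 and 0 in library 2. Cells with 10 or more mitotic UMIs (154 in library 1, 560 in library 2) were set against cells with 0 (855 and 1073). Of the members with at least 50 UMIs there, 16 of 34 in library 1 (background 11.8%) and 18 of 38 in library 2 (background 7.6%) were lower past 1.5-fold. On the other side, 2 and 2 were higher (background 9.82% and 8.7%). Of the 34 members measured in both libraries, 14 were lower in both (background 3.56% of genes) and 1 higher in both (background 3.17%). Of the licensing genes 6 of 7 and 6 of 8 were lower. With all UMIs of the same cells in place of the thinned ones, a variant added after the data were seen that measured more members, 19 of 38 (background 9.9%) and 21 of 39 (background 6.93%) were lower. In that variant 0 were higher (background 9.65% and 8.54%). Of 38 members measured in both libraries there, 15 were lower in both (background 3.21%) and 0 higher in both (background 3.44%). The values per gene that follow are from that variant.

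Among licensing genes, Mcm2 stood at 129 CPM in cells without mitotic UMIs and 55.6 CPM in mitotic-rich cells of library 1 (log2 ratio −1.22, −1.77 to −0.71), and at 179 and 75.8 CPM in library 2 (−1.24, −1.46 to −1.02). Mcm6 had log2 ratios of −0.99 and −1.31, Mcm4 −1.98 and −1.27, and Mcm3 −0.90 and −0.97 in the 2 libraries. Cdc6, which is known to be turned over and re-expressed with each cycle, was at −2.39 (3 against 68 UMIs) and −1.67 (37 against 134 UMIs). Mcm7 was the least lowered of the ring in library 1 (−0.52) and Mcm5 in library 2 (−0.49).

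Outside licensing, Pcna stood at 315 and 144 CPM in library 1 (−1.13, −1.47 to −0.81) and 293 and 134 CPM in library 2 (−1.13, −1.30 to −0.96). Gins2 was at −0.96 and −0.88, Hells at −1.29 and −0.99, Uhrf1 at −1.0 and −1.20, and Lig1 at −0.88 and −0.72. Their ratios lay within the range of the early set. Not all chromatin genes did so: Atad2 was at −1.15 and −0.23, and Chaf1a at −0.47 and −0.24 with intervals that included 0.

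Ung, the uracil-DNA glycosylase that starts repair of uracil in DNA, had the lowest ratio of all members, and was singled out after its values were seen. Per 1000 cells of library 1 it gave 91.2 UMIs at 0 mitotic UMIs, 89.0 at 1 to 4, 22.4 at 5 to 9 and 14.4 at 10 to 19. In library 2 it gave 117, 108, 27.0 and 2.02. With all UMIs, mitotic-rich cells held 3 Ung UMIs against 124 in library 1 (log2 ratio −3.26, −5.56 to −1.68) and 4 against 231 in library 2 (−5.67, −7.55 to −4.29). Its level was thus low from 5 mitotic UMIs upward in both libraries, earlier on this scale than that of the late genes.

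The genes of nucleotide supply were mixed. Rrm1 was higher in mitotic-rich cells, at 102 and 149 CPM in library 1 (0.54, 0.18 to 0.89) and 130 and 183 CPM in library 2 (0.49, 0.31 to 0.67). Those ratios are short of 1.5-fold, while the thinned counts put Rrm1 past it in both libraries (0.63 and 0.76), the 1 member for which that held. Tyms had 154 and 155 CPM (0.01, −0.33 to 0.34) and 150 and 158 CPM (0.08, −0.10 to 0.26). Tk1 was at −0.06 and −0.03, with intervals that included 0. Dut was lower in both libraries, short of 1.5-fold, at −0.42 (−0.71 to −0.13) and −0.47 (−0.60 to −0.35). Rrm2 differed from its partner Rrm1, at −0.88 (−1.47 to −0.33) and −0.25 (−0.49 to −0.01). Of the clamp loader, Rfc2 was at −0.55 and −0.76, Rfc4 at −0.34 and −0.15 and Rfc5 at 0.20 and 0.01.

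**Figure D4:**
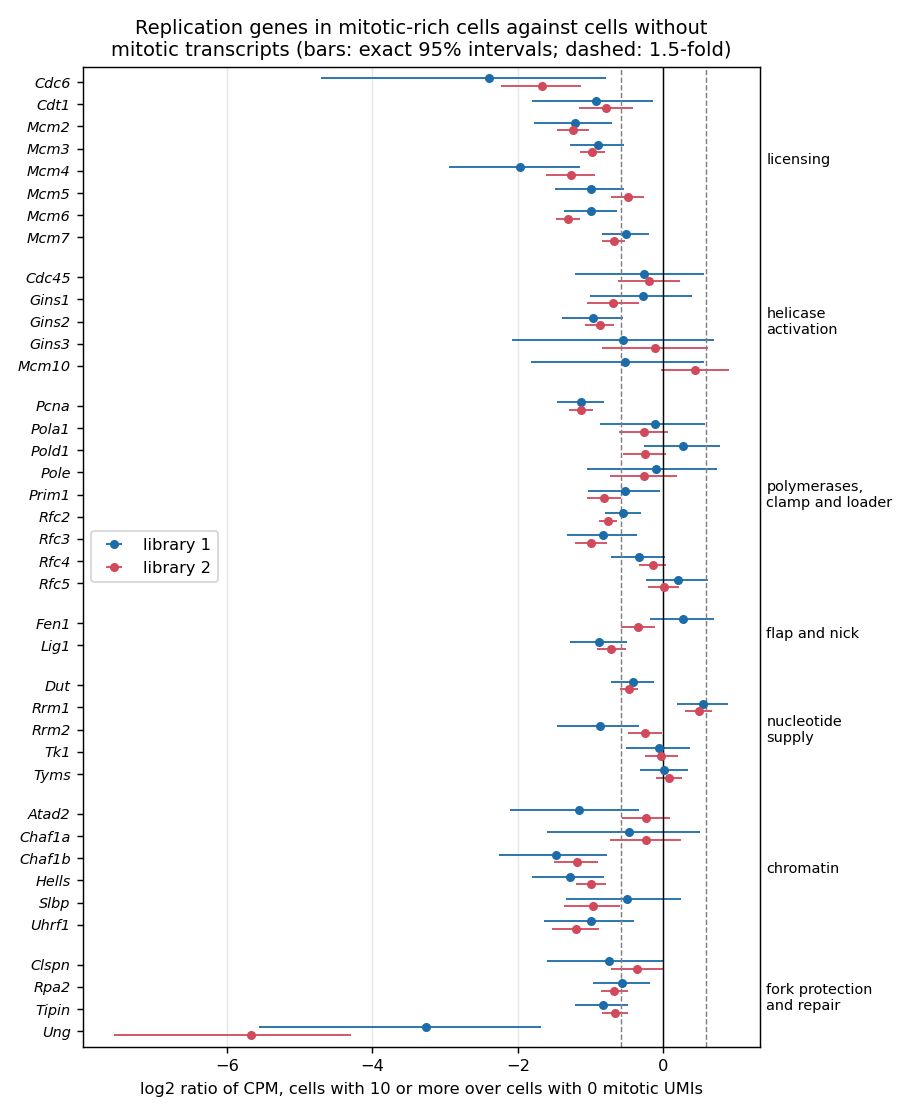
Log2 ratio of CPM for each of the 39 genes, cells with 10 or more over cells with 0 mitotic UMIs, in library 1 and library 2, from all UMIs of these cells with exact 95% intervals. Licensing genes lie left of 0, Rrm1 lies right of 0, Tyms and Tk1 lie on it, and Ung lies farthest left.

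Cells with a UMI of the G1/S cyclins Ccne1 or Ccne2 and under 5 mitotic UMIs (97 and 140 cells) were compared as well. Against the mitotic-rich cells, 15 of 20 members measured in library 1 were higher past 1.5-fold (background 8.44%) and 25 of 30 in library 2 (background 9.02%). None was lower in either (0 and 0, with backgrounds of 8.59% and 11.3%). Rrm2 was higher by 2.05 and 1.88 on the log2 scale, with 39 against 15 UMIs in library 1 and 79 against 86 in library 2, where the mitotic-rich cells were more numerous. Lig1 was higher by 1.69 and 1.63 and Mcm3 by 1.11 and 1.21. Rrm1 was the member nearest to even among those of nucleotide supply, at 0.11 and 0.16, with intervals that included 0. This comparison shares its mitotic-rich cells with the one before it. Its other side was also chosen by low mitotic UMIs. Cells without Ccne1 or Ccne2 at matched mitotic UMIs were not compared. What the cyclins add to the mitotic count can therefore not be read from it.

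The cells were also divided by their lineage transcripts. These classes rest on 1 UMI or more of 1 or 2 genes, and the mitotic bins on 23 genes. How far the 2 groupings divide the cells can therefore not be ranked. Cells were placed by their thinned UMIs into those with Hlf, a factor of stem and early progenitor cells, and, among the rest, those with Dntt only (a lymphoid enzyme), with Mpo or Ctsg only (myeloid granule proteins), with both kinds, or with none. In library 1 replication-rich cells made up 43.3% of 224 Hlf cells, 43.4% of 696 Dntt cells, 47.9% of 386 Mpo or Ctsg cells, 50.7% of 217 cells with both and 50.3% of 921 with none. In library 2 the shares were 54.5% of 332, 51.0% of 1346, 56.9% of 620, 55.1% of 332 and 56.8% of 1386. Dntt cells were the lowest class in library 2 and level with Hlf cells, the lowest, in library 1. Most neighbours in this order differed by less than their intervals. Cells with none exceeded Dntt cells by 6.88 percentage points in library 1 (1.97 to 11.7) and by 5.82 in library 2 (2.08 to 9.53). That difference was not repeated with another random draw of UMIs.

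Mpo or Ctsg cells exceeded Dntt cells by 4.54 percentage points in library 1 (−1.64 to 10.7) and by 5.97 in library 2 (1.22 to 10.6). Neither its size nor its sign was stable. Another random draw of UMIs gave 2.36 (−3.77 to 8.53) and 3.08 points (−1.63 to 7.76), and a minimum of 2 UMIs for the lineage transcripts 4.90 (−3.17 to 13.0) and 5.28 points (−0.75 to 11.2), so the interval of library 2 then included 0 too. At a limit of 15 member UMIs it was −0.55 points in library 1 and 0.07 in library 2, and at 3000 UMIs per cell it was −0.61 in library 2. Depth moved with the classes, since Mpo or Ctsg cells had medians of 4182 and 5367 UMIs before thinning and Dntt cells 2960 and 3762. Within 2000 to 4000 UMIs the difference was 12.7 and 15.3 points. At 4000 UMIs or more the 2 classes lay closer. There, replication-rich cells made up 40.6% of 217 Mpo or Ctsg cells and 36.8% of 117 Dntt cells in library 1. In library 2 they made up 55.1% of 494 and 53.6% of 573. In the low tail, 7.90% and 7.65% of Dntt cells held 2 or fewer member UMIs, against 2.85% and 1.45% of Mpo or Ctsg cells.

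**Figure D5:**
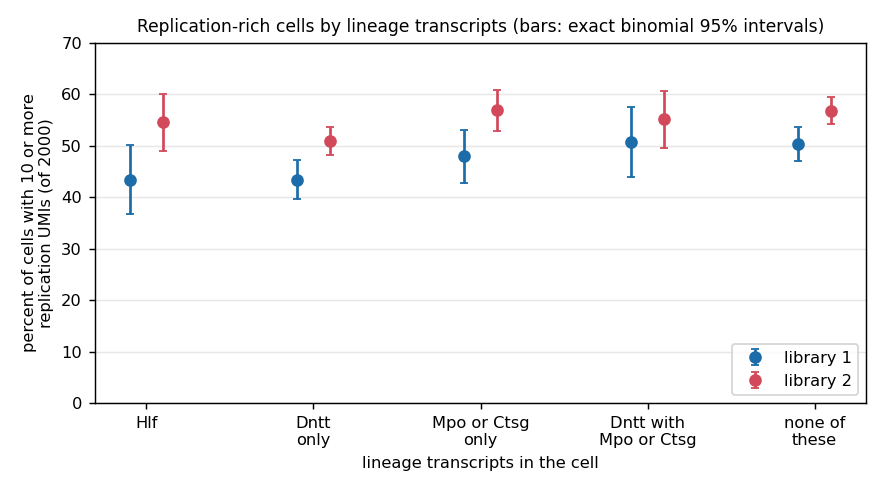
Percent of cells with 10 or more UMIs of the 39 genes, of 2000 UMIs per cell, by lineage transcripts and library, with exact binomial 95% intervals. Dntt cells are among the lowest in both libraries, at 43.4% and 51.0%, and the intervals of most classes overlap within a library.

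The difference between Hlf cells and cells without Hlf changed with the thinning. At 2000 UMIs the difference in replication-rich cells was −4.44 points in library 1 (−11.1 to 2.42) and −0.015 points in library 2 (−5.63 to 5.50), with both intervals including 0. At 1000 UMIs it was −9.02 points in library 1 (−15.8 to −1.62), an interval below 0, and −6.57 in library 2 (−13.1 to 0.17). Mitotic-rich cells made up 3.13% of Hlf cells in library 1 and 14.5% in library 2, and 6.30% and 13.9% of all cells. Free RNA can give a single UMI. Cells with 5 or more MHC class II UMIs, 54 and 48 in number, held a Hlf UMI in 9.26% and 14.6% of cases. The shares elsewhere, 9.16% and 8.19%, lay within their intervals (3.08 to 20.3 and 6.07 to 27.8). A Hlf UMI is thus not set apart from background here, and the Hlf class is to be read with that limit. Whether the MHC class II cells make Hlf, Dntt, Mpo or Ctsg transcripts of their own was not tested. Mpo or Ctsg was found in 11.1% and 8.33% of the MHC class II cells against 26.9% and 24.9% elsewhere, and Dntt in 25.9% and 39.6% against 39.9% and 44.1%. Replication-rich cells made up 27.8% and 58.3% of them against 47.8% and 54.5% elsewhere. The interval of the Dntt share in library 2 (25.8 to 54.7) held the share elsewhere, so a Dntt UMI there is not set apart from background either. In library 1 the upper end of the Dntt interval lay only just below the share elsewhere. Mpo or Ctsg UMIs were rarer in the MHC class II cells than elsewhere but not absent. The Dntt class and the Mpo or Ctsg class of both libraries are therefore to be read with that limit. Median depths were 2966 and 3412 UMIs in the MHC class II cells and 3256 and 4104 elsewhere.

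Past 1.5-fold, single members hardly followed the lineage transcripts. Between Mpo or Ctsg and Dntt cells, 4 of 37 members were higher past 1.5-fold in library 1 (background 6.43%) and 1 of 38 in library 2 (background 5.35%), and 2 and 1 were lower (background 5.76% and 6.9%), shares near those of all genes. Of 37 members measured in both libraries, 1 was higher in both (background 1.33%) and 1 lower in both (background 1.9%). The lower one was Ung, at −0.78 (19 against 59 UMIs) and −0.71 (32 against 114 UMIs), and the higher one Chaf1a, a histone chaperone subunit, at 0.80 (26 against 27 UMIs, with an interval from −0.04 to 1.63) and 0.78 (49 against 62 UMIs). By sign alone, 27 members lay above 0 and 10 below in library 1, and 25 and 13 in library 2. The share of all genes above 0 was not counted. The all-gene medians were themselves above 0, at 0.06 and 0.03, beside member medians of 0.05 and 0.10. All 8 late members and all 5 nucleotide supply genes, sets that overlap, lay above 0 in both libraries. The late medians were 0.15 and 0.15, beside 0.06 and 0.03 over all genes. The lowest late members, at 0.03 and 0.02, lay below those all-gene medians. Early members split 4 and 4 in each library. Between Hlf cells and cells without Hlf, 0 and 1 members were higher past 1.5-fold (background 7.75% and 8.01%). In turn 2 and 1 were lower (background 10.9% and 9.21%), and no member passed in both libraries. Between Hlf and Dntt cells, 2 of 35 and 1 of 38 were higher (background 4.66% and 5.44%) and 1 and 0 lower (background 6.86% and 6.56%).

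Members were found together in cells somewhat more often than their separate shares give. Over 741 pairs, the share of thinned cells with both genes over the product of the separate shares had a median of 1.1 in library 1 and 1.11 in library 2, with 600 and 683 pairs above 1. Late members were the most joined, at 1.18 and 1.20, and early members were at 1.08 and 1.09. Detection was not matched between these sets. The median over all pairs fell with depth, from 1.18 and 1.18 at 1000 UMIs to 1.07 and 1.08 at 3000. The order of the sets can therefore not be told apart from their detection. Pairs of 1 early and 1 late member were at 1.1 and 1.09, so the 2 sets were not found apart in cells. With the mitotic list the early members gave 0.82 and 0.80 and the late members 1.04 and 0.98, and members with the sort markers gave 0.99 and 0.98. Rrm2 with Tk1 reached 1.55 and 1.49, and Tyms with Rrm2 1.40 and 1.39. The highest pair was Mcm10 with Gins3, at 1.87 and 2.27, 2 genes of low count.

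Across thinned cells, summed early and late members had a Pearson correlation of 0.17 in library 1 and 0.19 in library 2 (2444 and 4016 cells that share a library). Early members with the mitotic list gave −0.18 and −0.27, and late members with it 0.01 and −0.04. Spearman's rho was −0.11 and −0.22 for the early members, and 0.16 and 0.11 for the late members, so for the late members the sign in library 2 depended on the measure. These are weak correlations of sparse counts, given as description. Of 3618 genes detected in 5% of cells or more, 2810417H13Rik, a partner of Pcna, was the most like the summed members, with correlations of 0.33 and 0.35. After it came Dctpp1, which clears dCTP, at 0.25 and 0.23, Stmn1 at 0.26 and 0.22 and Ldha at 0.22 and 0.26. The rest of the first 10 were Hsp90aa1, Mif, Siva1, Ptma, Ranbp1 and Nudc. At the other end stood ribosomal protein genes, led by Rpl32 at −0.32 and −0.30.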

How the data were processed

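Single-cell 3′ RNA-seq of sorted progenitors was deposited as 1 pooled table of UMI counts made by the authors with Cell Ranger 1.1 on mm10, per the submitters' processing notes. The deposited counts were used as they stand, and no doublet caller was run. CPM and ratios came from UMIs summed over kept cells of a library, with exact Poisson, conditional Poisson, binomial or Newcombe 95% intervals (Python 3.11.15, scipy 1.17.1). Ratios needed 50 UMIs and 1 in each group. For shares per cell, each cell was reduced to 2000 UMIs with seed 20240601. TMM factors came from edgeR 4.0.16 and size factors from DESeq2 1.42.0, for scaling only. The scripts were tested on simulated data. Members and gene lists were chosen with earlier results of these data known. Named genes were those with the 2 highest UMI sums in each role, the 4 highest and 4 lowest library ratios at 200 UMIs or more, the early and late sets, and, named after their values were seen, Ung, Chaf1a, Gins3 (fewest UMIs), Pola1 and the other promoter matches, and top pairs. Median depth was 2830 and 3836 UMIs per kept cell. Alternatives tried were other cell filters, scalings, folds, thinning depths, seeds, limits and late sets.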

Additional observations from a re-analysis of the deposited data

Results flagged for a closer look

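Fen1 was picked out because its ratio had opposite signs in the 2 libraries, each with a counting interval that excluded 0. It was the 1 such case in 164 comparisons of a member between classes of cells. In mitotic-rich cells over cells with 0 mitotic UMIs, the log2 ratio of Fen1 was 0.62 in library 1 (0.02 to 1.18; 34 against 123 UMIs) and −0.54 in library 2 (−0.93 to −0.17; 80 against 223 UMIs). With all UMIs of the same cells it was 0.27 (−0.18 to 0.70) and −0.34 (−0.58 to −0.11), so the interval of library 1 then included 0. Exons of Gm10143 lie opposite the 3′ end of Fen1. The difference between the libraries was not tested.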

How the results depend on the processing

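Over 16 results and 112 alternatives, 71 values stayed within their limits, 35 moved and 6 changed sign; for those that moved or changed sign the cause was not tested. The log2 ratio of the summed members was 0.082 with TMM factors, 0.087 with DESeq2 size factors, 0.13 with at least 1000 genes and under 5% mitochondrial UMIs, 0.12 at 2000 to 4000 UMIs and 0.23 as a mean over cells. The count of members higher in library 2 was 0 under each of the first 4 (background 2.91%, 3.06%, 5.24% and 7.06% of all genes). It was 7 at the smaller fold (background 17.5%). Scaling moved the all-gene median of 0.11 to about 0, so the members' median stayed 0.11 above it; at 2000 to 4000 UMIs it was 0.01 above it. The early share was 48.1% (library 1, stricter filter), 50.9% and 48.7% (means over cells), 49.6% and 52.0% (2000 to 4000 UMIs, where the order of the libraries reverses), and 22.4% and 21.6% with all other members as the late set. Its change along the mitotic list was then −5.44 and −5.60 points, and −26.8 in library 2 at 2000 to 4000 UMIs. The gap between libraries in replication-rich cells was 2.09 points at 5 member UMIs, 9.82 at 3000 UMIs and 3.61 at 2000 to 4000 UMIs. The Mpo or Ctsg minus Dntt difference was 12.9 (5 member UMIs), −0.55 (15), 19.3 (1000 UMIs) and 12.7 (2000 to 4000 UMIs) in library 1, and 3.08 (another seed), 0.068 (15), −0.61 (3000 UMIs) and 15.3 (2000 to 4000 UMIs) in library 2. The Hlf difference was 0.34 in library 1 with another seed, −9.02 there at 1000 UMIs (−15.8 to −1.62) and −7.10 at 3000 UMIs, and in library 2 −6.57 at 1000 UMIs, 1.47 at 3000 UMIs, 0.29 without the 5% of cells with the most UMIs and 1.65 at 2000 to 4000 UMIs. Joint detection was 1.18 and 1.18 at 1000 UMIs, 1.07 and 1.08 at 3000 UMIs, and 1.11 and 1.16 at 2000 to 4000 UMIs. Members lower in mitotic-rich cells of library 1 numbered 9 at 1000 UMIs, and 17 to 21 under the other alternatives, added after seeing the data. Members measured and the share of all genes were not counted for these, except with all UMIs as given above. The counts can therefore not be compared with each other. No paired analysis was possible because each genotype has 1 library.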
